A study of Arabidopsis thaliana with 9 samples.

Results

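The genes described here were counted in gynoecium and nowhere else in the experiment. A locus was taken as a member when its read count was 0 in each of the 3 leaf libraries and each of the 3 stamen libraries and its count summed over the 3 gynoecium libraries was at least 50. These counts chose the members, so their absence from leaf and stamens is a description and was not tested. The rule left 182 of the 32833 loci in the count table, or 0.746% of the 24400 loci with a count in some library. RNA was sequenced from Arabidopsis thaliana accession Col-0 in 9 libraries, and the labels name no mutant, transgene or treatment. The labels name the groups female (gynoecium), male (stamens) and leaf, with 3 libraries each, with leaves and young flower buds as the material, at a stage termed Flower Bud Differentiation. They give no plant age, dissection step or count of pooled plants, and do not say that the libraries of a group came from separate plants, so p-values measure only the spread between these libraries, which may be technical. The series text speaks of gametophytes, but the labelled tissues are whole organs.

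The gynoecium is the female organ of the flower. In Arabidopsis it forms from fused carpels, whose margins give rise to the placenta and ovules, and it carries a style and stigma at its tip and, later, valve margins where the fruit opens. Its development rests on MADS-box, basic helix-loop-helix (bHLH) and SHI-family transcription factors, and on local synthesis and transport of auxin. Inside each ovule the female gametophyte, or embryo sac, holds the egg cell, synergids and central cell.

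Total counts were 16042169 to 18756860 per library, and all 182 members were counted in every gynoecium library. Members took 21127, 19297 and 20276 counts in gynoecium libraries 1 to 3, which is 0.113%, 0.112% and 0.112% of all counts. The tissue labels were checked with marker lists. The 5 gynoecium and ovule markers that are not members, CRC, STK, INO, SHP1 and HEC1, summed to 228 to 247 CPM (counts scaled to library size by TMM factors) in gynoecium, 0 in leaf and 1.88 to 2.66 in stamens. The 8 stamen and pollen markers summed to 19.1 to 20.8 CPM in gynoecium, with MS1, QRT3, DYT1 and MGH3 at 0, against 3350 to 3410 in stamens. The 6 leaf markers summed to 735 to 778 CPM in gynoecium and 18600 to 19200 in leaf. Markers of the egg cell, synergids and central cell were low in all tissues. They summed to 1.51 to 2.22 CPM in gynoecium, 2.49 to 2.6 in leaf and 3.33 to 5.38 in stamens. EC1.1, MYB98 and FWA had no count in gynoecium, and nearly all of the sum there was AGL80. AGL80 had 1.93 CPM in gynoecium, 2.55 in leaf and 0.888 in stamens, and FWA had 3.47 in stamens. EC1.1, EC1.2 and MYB98 share 52.3%, 48.0% and 25.7% of their exon bases with another gene model, and FWA and AGL80 share 0.4% and 0.0%. The effect of such overlap on their counts was not tested. In whole organs, fewer cells of a type and less RNA per cell cannot be told apart.

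The share of genes that the rule picked differed between the tissues. Of 17030 loci with at least 50 summed counts in gynoecium, 1244 (7.3%) had 0 in all leaf libraries, 276 (1.62%) had 0 in all stamen libraries and 182 (1.07%) had both. The same rule turned to stamens picked 1446 loci, 7.8% of the 18548 that reached 50 counts there, and turned to leaf it picked 202, or 1.25% of 16122. The exact 0 was common and the counts next to it were rare. Against the 182 loci at 0, only 8 loci had 1 count summed over the leaf and stamen libraries, 13 had 2 and 6 had 3. Between 7 and 12 loci stood at each of the sums from 4 to 10. Whether a step of the authors' counting set low counts to 0 was not tested.

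**Figure D1:**
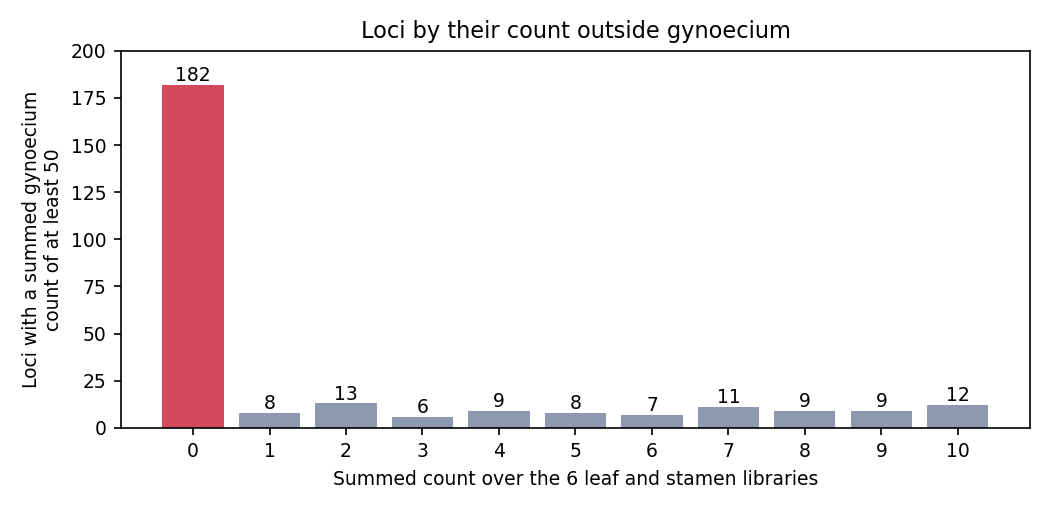
Loci with at least 50 summed gynoecium counts (vertical axis, number of loci) by their count summed over the 6 leaf and stamen libraries (horizontal axis). The bar at 0, with the 182 members, is far above the bars from 1 to 10, which hold 6 to 13 loci each.

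Just inside the threshold stood DD11 with 9, 16 and 25 counts in the 3 gynoecium libraries (50 in sum), AT3G45950 with 51, and YUC4 and AT2G39430 with 52 each. Just outside stood the noncoding AT1G32172 with 49 and AT4G23340, an oxygenase family member, with 47. The MADS-box gene GORDITA (GOA) had 46. A single count elsewhere was enough to leave out SUC5, a sucrose transporter of the major facilitator family, which had 547, 544 and 508 gynoecium counts and 1 in a leaf library. AT2G40250, an SGNH-type esterase, had 184, 182 and 167 gynoecium counts and 1 in a stamen library. Allowing up to 3 counts in leaf and stamens together gave 209 loci, and allowing up to 10 gave 274. Of the 92 loci with 1 to 10 such counts, 68 had them in stamens only, 9 in leaf only and 15 in both. The highest of these was AT4G12960, a thiol reductase of the GILT family, with 1620, 1662 and 1543 gynoecium counts and 4, 5 and 1 in stamens.

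Members were low to moderate in level. Their median was 2.04 CPM, with a range of 0.728 to 66.4, against 20.5 CPM for all loci with at least 50 gynoecium counts. Per length, the median deposited FPKM (fragments per kilobase, scaled to library size) was 1.95, with a range of 0.297 to 54.3, against 13.8 for those loci. Of the members, 32 lay under 1 CPM, 134 between 1 and 10, and 16 at 10 or more. The level was concentrated in few genes, with the 10 highest holding 41.1% of the members' summed CPM and 17 reaching 50% of it. Replicates agreed closely, with a median coefficient of variation of 14.4%. The chi-square of member counts between gynoecium libraries was 1.61 per degree of freedom, where a value of 1 is counting noise alone, and 1.82 in 13854 loci of the same count range.

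By annotation 169 members were protein-coding, 8 long noncoding RNAs, 3 microRNA precursors, 1 other noncoding RNA and 1 small nuclear RNA. Chromosomes 1 to 5 held 43, 26, 42, 32 and 39. Sorted by their annotated product, 51 were enzymes and cell wall proteins with 38.7% of the members' CPM, 36 transcription and chromatin proteins with 29.1%, 18 signalling proteins, 13 transporters, 13 RNA genes and 12 secreted or peptide-like proteins. The remaining 39 were of other or unknown function. Transcription and chromatin genes had the highest median, 2.85 CPM, and RNA genes the lowest, 1.26 CPM. Product names with transcription-related words made up 17.0% of members, 6.64% of the loci counted only in stamens, 7.92% of those counted only in leaf and 5.69% of all loci with a count. These shares are descriptions and were not tested.

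**Figure D2:**
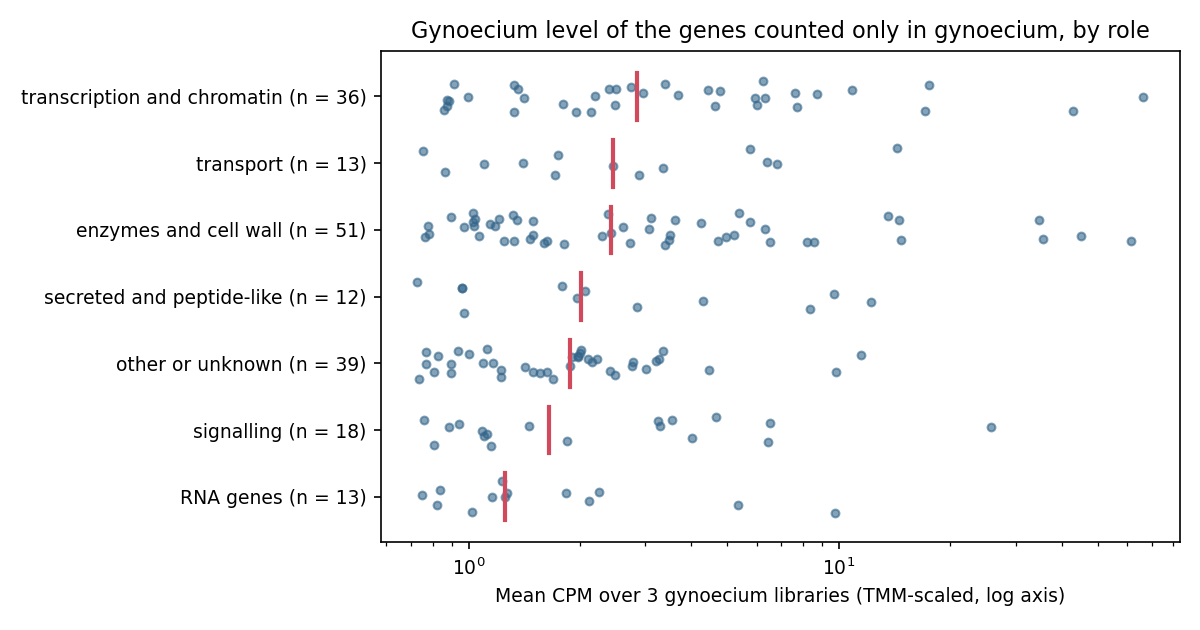
Mean CPM over the 3 gynoecium libraries (horizontal axis, log scale) for each of the 182 members, grouped by role, with the median of each group as a red bar. Medians ran from 1.26 CPM for RNA genes to 2.85 CPM for transcription and chromatin, and the values of all groups overlap.

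The most abundant transcription factor was AT2G24700, a protein of the plant-specific B3 DNA-binding family on chromosome 2. Its counts were 1680, 1379 and 1534 in the gynoecium libraries, and its FPKM 43.3 ± 2.46 (SD, n = 3). Set against 3 counts over a whole group, which is 0.0729 CPM in leaf and 0.0594 CPM in stamens, its 66.4 CPM was at least 912-fold above leaf and at least 1118-fold above stamens. Such bounds cover counting error only, and would not hold if low counts in leaf or stamens had been set to 0 before deposit. The annotation holds 96 B3 loci with a count in these data, of which 6 were members and 14 were counted only in stamens. Over the 24400 loci of any kind with a count, 1446 were counted only in stamens. Of all loci with a count, 0.746% were members. The other 5 B3 members, AT1G26680, AT3G19184, AT4G31615, AT4G31630 and AT5G60130, lay between 1.67 and 2.32 FPKM. AT4G31615 and AT4G31630 share 46.6% of aligned residues.

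STYLISH1 (STY1), a zinc-finger protein of the SHI family that promotes style and stigma formation, had 1029, 875 and 1054 counts. Its level was 29.3 ± 2.03 FPKM (SD, n = 3), below only ADS1 and AT2G24700 among members, and at least 720-fold above stamens on the CPM scale. The 3 bHLH and MADS-box regulators of carpel patterning were far lower. HECATE2 (HEC2), which acts in the stigma and transmitting tract, had 101, 83 and 122 counts and 3.97 FPKM. INDEHISCENT (IND), which specifies the valve margin, had 83, 89 and 62 counts and 2.83 FPKM. SHATTERPROOF2 (SHP2), a MADS-box gene of valve margins and ovules, had 57, 38 and 57 counts, and 56.7% of its exon bases are shared with the noncoding locus AT2G42835. The strand setting of the counting is not given in the sources used here, so reads of overlapping genes cannot be told apart.

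Regulators of meristems, boundaries and leaf-like growth were the next group. WUSCHEL-RELATED HOMEOBOX 1 (WOX1), which promotes blade outgrowth, had 392, 401 and 411 counts and 12.8 ± 0.707 FPKM (SD, n = 3). HB4, a homeodomain-leucine zipper protein of adaxial patterning, had 411, 380 and 390 counts and 15.7 ± 0.175 FPKM. Both were steady across the 3 libraries. GROWTH-REGULATING FACTOR 9 (GRF9) had 262, 240 and 248 counts. LATERAL SUPPRESSOR (LAS), a GRAS protein needed for axillary meristems, had 185, 155 and 194, and CUP-SHAPED COTYLEDON3 (CUC3), a NAC protein of organ boundaries, had 127, 128 and 154. LEAFY (LFY), the regulator of floral meristem identity, was close to the threshold with 15, 23 and 22 counts, as was DORNRÖSCHEN (DRN, annotated ESR1), an AP2-type factor of early organ founder cells, with 16, 20 and 23.

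Other regulators were the bHLH gene AT3G21330 (210, 190 and 204 counts), the tubby-like gene TLP8 (190, 177 and 158), WRKY12 (146, 154 and 136), the zinc-finger gene URO (163, 124 and 144) and the OVATE family gene OFP4 (153, 123 and 141). NAC101 and ANAC026, known as VND6 and VND5 and related to xylem vessel formation, had 40, 23 and 29 and 23, 19 and 21 counts, and their proteins share 46.9% of aligned residues. RABBIT EARS (RBE), a zinc-finger gene fixed here as a petal marker, had 63, 55 and 72 counts. The 4 petal and sepal markers, among them AP3 and PI at 12 and 7.75 CPM, summed to 22 to 23.9 CPM in gynoecium and 1090 to 1140 in stamens. AP3 and PI are also in the stamen marker list, and had 343 and 774 CPM in stamens, nearly all of the sum there. AP1 had 0.437 CPM in gynoecium and 0.912 in stamens. The part of other floral organs in the RBE counts was not tested.

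The highest signalling member was AT1G13230, a leucine-rich repeat protein at 606, 595 and 571 counts and 20.5 ± 0.951 FPKM (SD, n = 3). The protein kinases AT5G11400, which shares 31.6% of its exon bases with another gene model, and AT5G51800 had 143, 142 and 159 and 117, 86 and 75 counts. Several signalling members act in auxin and other hormone pathways. YUCCA3 (YUC3) and YUCCA4 (YUC4), flavin monooxygenases of the last step of auxin synthesis, had 167, 127 and 157 and 16, 23 and 13 counts. The proteins share 58.6% of aligned residues, and YUC3 was about an order of magnitude higher per length, at 4.69 FPKM against 0.448. WAG2, a kinase of the family that regulates auxin transport, had 107 counts in each library, and the Aux/IAA gene IAA31 had 57, 49 and 29. Genes that inactivate other hormones were also members. CYP707A4, an abscisic acid hydroxylase, had 78, 77 and 89 counts, and the gibberellin oxidases GA2OX4 and GA2OX8 had 39, 14 and 23 and 29, 19 and 30. The cyclin-dependent kinase inhibitor ICK6 (69, 80 and 78), the gene FAF4 (79, 71 and 75) and the polarity gene BASL (22, 15 and 19) complete the named signalling members.

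The promoter of YUC4 is shown because STY1 is known to activate YUC4 and the reference annotation notes that it does so through the element ACTCTAC. The 250 bases before the annotated start of YUC4 lie on the minus strand of TAIR10.1 at chr5:3613641-3613890, and the capitals mark the single match, which begins 77 bases before the start.
YUC4: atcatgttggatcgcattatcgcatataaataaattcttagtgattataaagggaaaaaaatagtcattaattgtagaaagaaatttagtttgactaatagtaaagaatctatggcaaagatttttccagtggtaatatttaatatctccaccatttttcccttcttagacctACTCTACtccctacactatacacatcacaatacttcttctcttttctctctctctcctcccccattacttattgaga

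Promoter windows of 300 bases, from 250 before to 50 after the annotated start, were searched on both strands for 4 motifs. ACTCTAC was found in 4 of 182 member windows (2.2%) and in 2.21% of 32546 windows of all loci, and on the gene's own strand in 2.2% and 1.21%. The other 3 members with a match were AT1G65180, AT1G66780 and AT2G39410. The auxin response element TGTCTC was found in 17.0% of member windows and 14.3% of all, and the G-box CACGTG in 7.69% and 7.11%. A CArG box, the site form bound by MADS-box proteins (CC, 6 bases of A or T, GG), was found in 2.2% and 2.87%. A match is a string in the window and not a measured binding site.

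Enzymes held the largest share of member counts. ADS1, a fatty acid desaturase, was the highest member per length, with 1446, 1395 and 1412 counts and 54.3 ± 1.36 FPKM (SD, n = 3). AT5G49180, of the pectin methylesterase and inhibitor superfamily that modifies the cell wall, had 1140, 992 and 973 counts and 26.4 ± 1.61 FPKM. The serine carboxypeptidase-like gene scpl47 had 827, 781 and 786 counts and 25.4 ± 0.53 FPKM. Per length these were the 3 highest enzymes among the members. The subtilase AT4G21630, of a serine protease family, followed at 879, 743 and 840 counts and 19.6 FPKM. AT4G26280, annotated only as a P-loop hydrolase, had 334, 314 and 355 counts and also 19.6 FPKM. The cytochrome P450 CYP86C1 had 359, 332 and 324 counts and the GDSL lipase AT4G16230 had 304, 307 and 323.

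**Figure D3:**
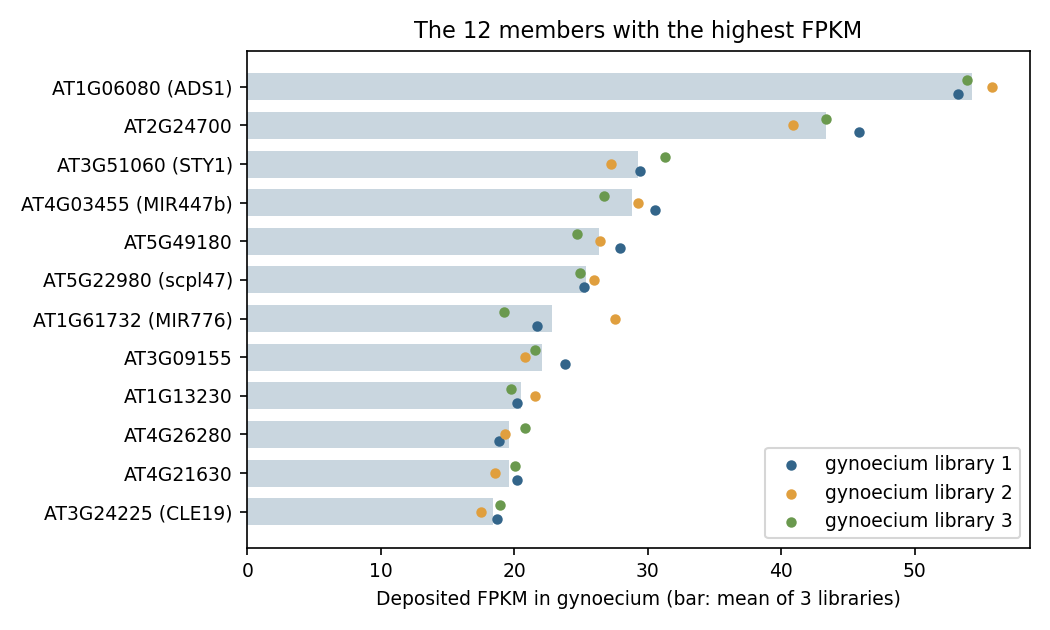
Deposited FPKM in gynoecium (horizontal axis) of the 12 members with the highest mean, with the mean as a bar and the 3 libraries as points. ADS1 at 54.3 and AT2G24700 at 43.3 stand above the rest, and AT3G24225 (CLE19) at 18.4 is the lowest shown.

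Several enzyme families had more than 1 member. Of terpenoid synthase and cyclase loci with a count, 4 of 26 were members. TPS21, a sesquiterpene synthase known from floral stigmas, had 104, 120 and 135 counts. AT3G14520, AT3G14530 and AT3G14540 are next to each other on chromosome 3 and had 71, 68 and 73, then 21, 27 and 23, then 105, 114 and 123. Of subtilases 4 of 32 were members, of GDSL lipases 5 of 76, and of cytochrome P450 loci 6 of 157. Of all loci with a count, 0.746% were members. Counted only in stamens were 5 terpenoid loci, 2 subtilases, 10 GDSL lipases and 10 cytochrome P450 loci, beside 1446 of all 24400 loci with a count. Of F-box loci 3 of 454 were members, and of protein kinase loci 6 of 740. AT4G21630 and AT4G21640 are adjacent on chromosome 4 and share 86.0% of residues, yet their summed counts were 2462 and 86. The GDSL lipases AT4G16220 and AT4G16230 are adjacent as well, with sums of 92 and 934. Between near-identical genes the authors' counting could have split or dropped reads, so the values of such pairs are uncertain. Stachyose synthase STS (36, 24 and 19 counts), galactinol synthase GolS6 (46, 61 and 51) and the oil body protein OLEO3 (45, 41 and 59) were low.

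Among transporters the highest was AT1G72140, of the major facilitator superfamily, with 369, 319 and 302 counts and 9.51 ± 0.779 FPKM (SD, n = 3). The ABC transporters ABCG35 (135, 132 and 130) and ABCG39 (66, 89 and 75) and the metal transporter ZIP2 (81, 65 and 53) followed, with the multidrug efflux (MATE) gene AT1G66780 at 167, 130 and 146. Of 47 MATE loci with a count, 4 were members and 3 were counted only in stamens, beside 1446 stamen-only loci among all 24400 with a count. Of all loci with a count, 0.746% were members. One of the 4 MATE members was TT12, which carries flavonoid precursors into the vacuole of the seed coat, at 51, 33 and 37 counts.

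Secreted and peptide-like members were led by CLE19, a precursor of a CLAVATA3-type signal peptide, with 298, 257 and 291 counts and 18.4 ± 0.749 FPKM (SD, n = 3). The glycine-rich genes AT1G04660 and AT1G30795 had 242, 208 and 222 and 152, 203 and 218. AT3G12000, annotated as related to the S-locus stigma protein SLR1 of Brassica, had 102, 95 and 99, and GRI, of the Stig1 family named for the stigma, had 56, 68 and 72. Members named in connection with the female gametophyte include EDA11, a C1 domain gene named for embryo sac development arrest (93, 47 and 54 counts), the ECA1-type gene AT1G57777 (36, 38 and 49 counts), the egg cell-secreted-like gene AT5G54062 (48, 57 and 37), and DD11, named for its loss in ovules without an embryo sac. AT1G57777 shares 96.5% of residues with AT1G57775, which had 36 counts in gynoecium and 0 elsewhere, so reads may be split between them.

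The RNA genes include 3 microRNA precursors, whose mature sequences are shown to identify them. These are from the RefSeq annotation of TAIR10.1, with capitals for the seed (bases 2 to 8). No seed is shared among them. The counts are of reads over the precursor loci and do not measure the mature microRNAs.
miR447b: tTGGGGACgagatgttttgttg
miR776: tCTAAGTCttctattgatgtt
miR771: tGAGCCTCtgtggtagccctca
The mature miR447b lies at chr4:1535482-1535503 on the minus strand, miR776 at chr1:22795699-22795719 on the plus strand and miR771 at chr3:19659381-19659402 on the minus strand. MIR447b, whose family targets kinases of the 2-phosphoglycerate kinase type according to the annotation, had 135, 119 and 114 counts. MIR776 had 48, 56 and 41, and MIR771 had 39, 29 and 20. Their FPKM of 28.8, 22.8 and 14.4 rests on short precursor models.

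The long noncoding RNA AT3G09155 had 252, 202 and 220 counts and 22.1 ± 1.59 FPKM (SD, n = 3). It overlaps the MADS-box gene SHP1, which had 489, 474 and 549 counts in gynoecium, 0 in leaf and 7, 1 and 2 in stamens. The 2 share 4.3% of the exon bases of AT3G09155, and without the strand their reads there cannot be told apart. AT3G07205 and AT2G19582 overlap the tetraspanin genes TET3 and TET2, with 12.9% and 40% of their exon bases shared. In all, 29 members share exon bases with another gene model, and in SHP2 and AT3G45390 the share is over 50%, at 56.7% and 82.2%.

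The members were next set beside genes of gynoecium development that the rule did not pick. The list of 25 carpel and style genes held 4 members, HEC2, STY1, IND and SHP2. The list of 23 ovule and integument genes held 2, CUC3 and DRN. The list of 22 female gametophyte genes held none. For the other genes of the lists, gynoecium was compared with leaf and with stamens by edgeR's quasi-likelihood test over all 20827 genes that passed a filter on low counts, and a gene was called at a Benjamini-Hochberg adjusted p under 0.05. Both comparisons share the gynoecium libraries.

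Carpel and style genes were higher in gynoecium than in leaf in all 19 tested cases, where 42.6% of all genes tested were called higher and 40% lower (82.5% either way). Against stamens 16 of 19 were higher, with 39.0% of all genes called higher and 46.3% lower (85.3% either way). ALC and KNU of the list were not tested, since they had no count in any library. ALC shares 84.5% of its exon bases with another gene model, and KNU shares 0.0%. With libraries scaled by their totals alone, the share of calls that were higher in gynoecium was 67.3% against leaf, compared with 51.6% by TMM, and 60.2% against stamens, compared with 45.7%, and the median of all genes moved from 0 to 0.55 and from -0.09 to 0.29 on the log2 scale. The list's median log2 difference was 6.24 against leaf and 3.24 against stamens, and both values are the same with the genes at 0 placed at 3 counts per group. SPATULA (SPT), a bHLH partner of the HECATE proteins, had 237 ± 5.58 CPM in gynoecium, 3.12 ± 0.407 in leaf and 63.6 ± 0.317 in stamens (SD, n = 3), and was higher by 6.24 and 1.90 on the log2 scale (edgeR adjusted p = 1.89e-61 and 6.68e-46). HEC1 was 4.81 higher than in stamens on the log2 scale and HEC3 was 3.33 higher, with 12, 14 and 12 and 20, 27 and 24 counts there. SHP1, at 21.9 CPM, was 6.74 higher. The exceptions were NGA4 and ETTIN (ETT), called lower than in stamens by TMM with log2 differences of -0.46 each but not called with library totals alone (-0.05 and -0.04), and LRP1, at 5.76 CPM in gynoecium and 5.72 in stamens (edgeR adjusted p = 0.96), which was called higher in gynoecium with library totals alone (0.42 on the log2 scale, edgeR adjusted p = 0.00844).

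Ovule and integument genes were higher than leaf in 19 of 20 tested cases and higher than stamens in 17. Over all genes tested, the shares called higher were 42.6% and 39.0%. DRNL of the list was not tested, since it had no count in any library. The list's medians were 3.03 and 2.56 on the log2 scale, or 2.8 against leaf with the genes at 0 placed at 3 counts. SEEDSTICK (STK), the MADS-box gene of ovule identity, had 98.2 ± 4.05 CPM in gynoecium, 0 in leaf and 0.332 ± 0.316 in stamens (SD, n = 3). INNER NO OUTER (INO), which marks the outer integument, had 84.3 ± 3.65 CPM in gynoecium and 0.501 in stamens. Both are thus close to the pattern of the members but above 0 in stamens. AIL5, an AINTEGUMENTA-like gene, was at 0 in stamens and had 8, 3 and 10 counts in leaf. BEL1 was the gene called lower than leaf, with a log2 difference of -1.84. SPL, WUS and PHV were called lower than stamens, with log2 differences of -5.84, -3.81 and -0.37, and for PHV the sign changes to 0.04 with library totals alone.

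The female gametophyte list was mostly low or at 0 in gynoecium. Of its 22 genes, 13 had too few counts to be tested, among them MYB98, CKI1, AGL61 and EC1.1, all at 0 in every library. MYB98 and EC1.1 share 25.7% and 52.3% of their exon bases with another gene model, and CKI1 and AGL61 share 0.0%. Of the 9 tested, 3 were higher than leaf, 2 lower and 4 not called, and 3 were higher than stamens, 5 lower and 1 not called. The list's median log2 difference was 0 against leaf and -0.35 against stamens. The 0 against leaf falls on FWA, MEA and GEX3, which had no count in gynoecium or leaf, so it says little about this comparison. The highest was WOX9, a homeobox gene also known from meristem growth, at 206 ± 5.3 CPM in gynoecium, 0 in leaf and 0.992 ± 0.107 in stamens (SD, n = 3). FWA, MEA and GEX3 were at 0 in gynoecium and counted in stamens, at 3.47, 2.43 and 3.1 CPM. DME, a DNA demethylase of the central cell, was called lower against both by TMM, with log2 differences of -0.60 and -0.22, but both signs change with library totals alone (0.05 and 0.19).

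**Figure D4:**
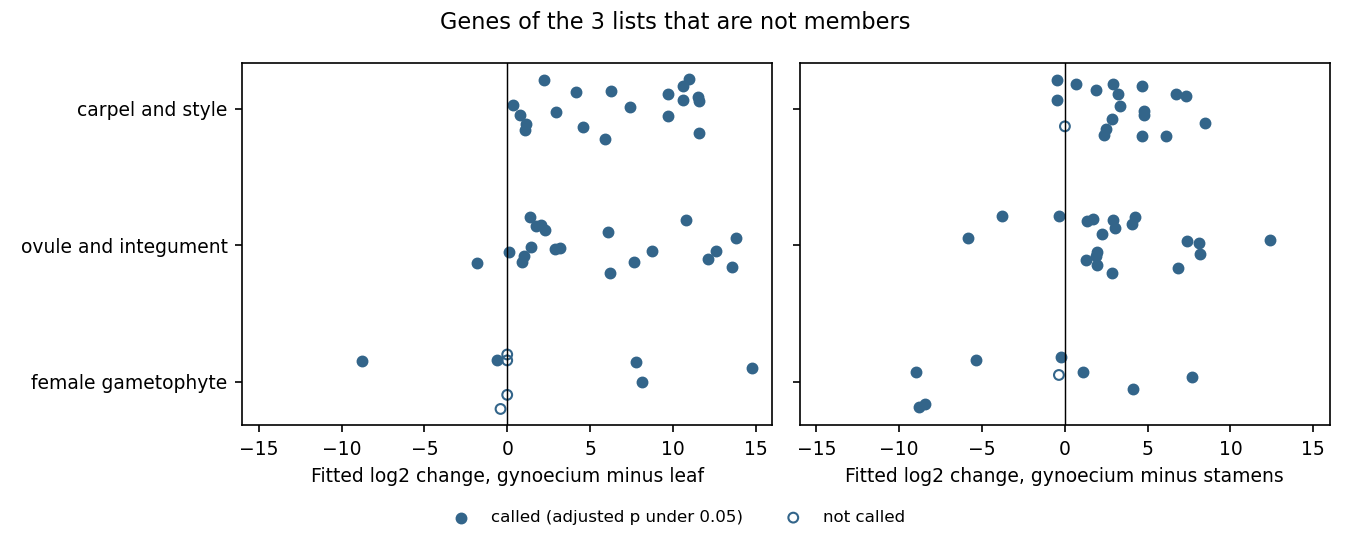
Fitted log2 difference (horizontal axis, gynoecium minus leaf on the left and gynoecium minus stamens on the right) of the tested list genes that are not members, by list, with called genes filled. Nearly all carpel, style, ovule and integument genes lie to the right of 0, and the 9 female gametophyte genes lie on both sides. On the left, FWA, MEA and GEX3 lie at 0 because they had no count in gynoecium or leaf.

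A member can be counted only in gynoecium while its closest relative is counted elsewhere. Each member's protein was searched against all other annotated proteins by BLASTP at an E-value of at most 1e-10, and the best hit that was not a member was taken. A relative was found for 156 of 169 proteins, 147 different genes in all, with a median identity of 60.6%. Of these, 91 had a count in gynoecium, 102 in stamens and 73 in leaf, and 32 had none in any library. Of the 98 tested, 50 (51.0%) were higher in gynoecium than in leaf, beside 42.6% of all genes, and 34 were lower. Against stamens 52 (53.1%) were higher, beside 39.0% of all genes, and 36 (36.7%) were lower, beside 46.3%. The relatives' median log2 difference was 0.41 against leaf (0.47 with genes at 0 placed at 3 counts) and 0.36 against stamens, beside 0 and -0.09 for all genes. The distance from these backgrounds was not tested, and a gene that met the rule is a member and could not be a relative here.

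The relatives of several members, abundant or not, were highest in another tissue. The relative with the highest FPKM outside gynoecium was scpl48, of scpl47. It had 3.72 FPKM in gynoecium, 31.4 in leaf and 793 in stamens, and was lower in gynoecium, with log2 differences of -3.72 against leaf and -8.15 against stamens (edgeR adjusted p = 3.61e-51 and 1.54e-74), where scpl47 had 25.4 FPKM in gynoecium and no count outside. ADS2, the closest relative of ADS1 with 75.9% identity, had 31.5 FPKM in gynoecium, 50.3 in leaf and 122 in stamens, so the 2 desaturases overlap in gynoecium. PRXCB, a cell wall peroxidase 93.3% identical to the member PRXCA, had 290 FPKM in leaf, 34.3 in stamens and 10.6 in gynoecium, and PRXCA had 1.48 in gynoecium. PEN3, a transporter known from pathogen defence and related to ABCG35, had 116 FPKM in leaf and 2.86 in gynoecium. RK3, the receptor kinase related to AT3G12000, was at 25.4 FPKM in leaf and 7.53 in stamens and had no gynoecium count. The tonoplast water channel GAMMA-TIP, the relative of TIP4;1, was an exception. It was high everywhere and highest by FPKM in gynoecium, at 590 FPKM there, 370 in leaf and 146 in stamens, where TIP4;1 had 1.19 in gynoecium. FPKM is scaled to library totals, and by TMM the difference of GAMMA-TIP between gynoecium and leaf was 0.03 on the log2 scale and not called (edgeR adjusted p = 0.454), against 0.67 and called with library totals alone (edgeR adjusted p = 1.75e-25).

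Other relatives were highest in gynoecium as well. SHI, the relative of STY1, had 8.86 FPKM in gynoecium, 0.0897 in leaf and 0.0942 in stamens. HAT3, the relative of HB4 and a partner in adaxial patterning, had 36.9, 5.54 and 1.05 FPKM, and was 2.09 and 4.72 higher in gynoecium on the log2 scale (edgeR adjusted p = 1.55e-30 and 4.53e-42). GRF3, the relative of GRF9, had 66.8 FPKM in gynoecium, 0.0102 in leaf and 5.18 in stamens, and was thus well above its member in gynoecium. For IND the relative was HEC3, at 18 FPKM in gynoecium, and for SHP2 it was SHP1, at 10.9, each again above the member. For others the best hit outside the members had no count. AT2G24700, AT5G49180, CYP86C1, AT4G26280, YUC3 and CUC3 each had a closest relative at 0 in all 9 libraries. Only the best hit was read, so other relatives of these genes may be counted. Among the members themselves, YUC4 shares 58.6% of aligned residues with YUC3, and NAC020 shares 58.8% with CUC3.

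**Figure D5:**
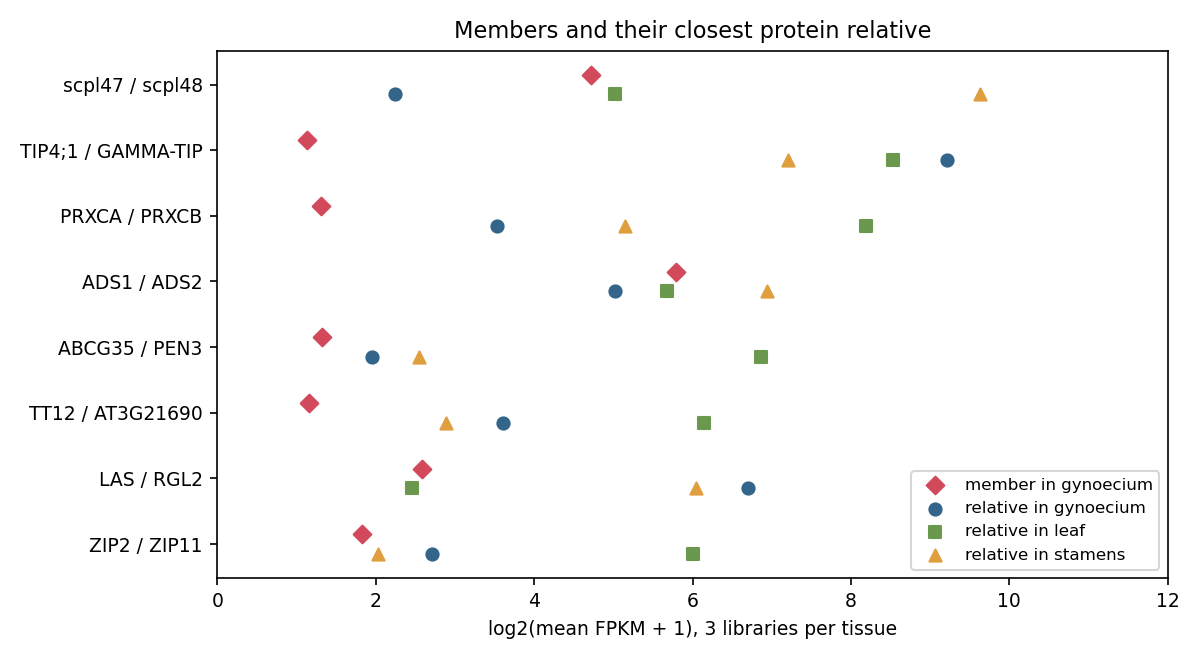
Level as log2(mean FPKM + 1) over 3 libraries (horizontal axis) of the 8 members whose relatives have the highest FPKM in leaf or stamens, with the member in gynoecium as a diamond and the relative in gynoecium, leaf and stamens as a circle, square and triangle. The pairs were picked for an abundant relative, which exceeds the member in at least 1 tissue in each, with scpl48 in stamens at 793 FPKM the farthest right.

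Some members were neighbours on the chromosome. There were 5 adjacent pairs, the subtilases, the 2 pairs within the terpenoid run, the GDSL lipases, and AT5G01875 beside AT5G11416. The number of pairs that a random placing of the members would give was not computed. Of the 352 neighbouring loci that are not members, 60.2% had a count in gynoecium, beside 60.6% of all loci that are not members, 51.7% had one in leaf, beside 57.5%, and 65.1% in stamens, beside 70.1%.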

How the data were processed

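Read counts per locus in 9 Arabidopsis Col-0 libraries (3 gynoecium, 3 stamens, 3 leaf) and FPKM of the same libraries were deposited by the authors. The submitters' processing notes name Bowtie2 2.2.3, HISAT2 2.1.0, TopHat2, HTSeq 0.6.0 and TAIR10, with no order or role. Read filters and strand are not given in the sources used here. The length implied by the deposited FPKM was within 5% of the annotated exon length in 99.7% of genes and in all members. Names, overlaps, proteins and sequences are from RefSeq's TAIR10.1 annotation, in which all 182 members were matched.

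Counts were fitted with edgeR 4.0.16 in R 4.3.3 (TMM, filterByExpr, robust quasi-likelihood, 1 mean per group, all 9 libraries, Benjamini-Hochberg over 20827 genes). The same fit was also run on simulated data. TMM factors were 1.27 to 1.28 in gynoecium, 0.955 to 0.966 in stamens and 0.815 to 0.817 in leaf. No libraries were identical. Folds against a group at 0 use 3 counts over the group. BLAST+ 2.17.0, Python 3.11.15, limma 3.58.1 and DESeq2 1.42.0 were also used.

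The members, lists, roles and tests were chosen with earlier results of these data known. Named members are the 10 highest by FPKM, up to 6 per role by CPM, those in a list, near the threshold or paired with each other, and those with the most abundant relatives, and list genes are up to 3 called per direction. A member that this rule picks is not reported here. Other members and list genes named for their known role were chosen after their values were seen. The same replicate number in different groups does not mark a shared plant or day in the labels, so libraries were not paired.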

Additional observations from a re-analysis of the deposited data

How the results depend on the processing

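The number of members depends on the rule. It was 294 at a summed gynoecium count of at least 20, 116 at 100 and 274 with up to 10 counts allowed in leaf and stamens, and the median FPKM was 1.39 at 20 and 3.08 at 100. Leaving out 1 library at a time gave 179 to 190 members. With 1 gynoecium library left out, the median FPKM of the fixed 182 members ran from 1.92 to 2.04. Leaving out a leaf or stamen library can only add loci under the rule, and 0 to 8 joined the 182 members. For gynoecium libraries the count threshold was lowered in proportion. Without gynoecium library 1, 2 or 3, 176, 180 and 176 of the 182 members remained. A test against a 2-fold change called 9828 genes against leaf and 8541 against stamens, where the main test called 17192 and 17773. Of the female gametophyte list, 2 genes were lower than leaf in the main test, 1 with library totals alone, 1 against a 2-fold change and 5 by limma-voom. FWA, MEA and GEX3 of this list had no count in gynoecium or leaf. A call for them against leaf would not show a lower level in gynoecium. The carpel and style genes lower than stamens, 2 by the main test, were 0 with library totals alone and 0 against a 2-fold change. The share of promoters with TGTCTC on one strand was 10.4% in members and 7.45% in all loci. LRP1 was called higher than in stamens with library totals alone (0.42), and its sign changed with the 6 libraries of the comparison alone (-0.00) and under leaving out 1 library, over which the log2 difference ran from -0.07 (without stamen library 2) to 0.07. With library totals alone the sign also changed for PHV (0.04), AGL80 against leaf (0.24), EC1.4 against stamens (0.06) and DME (0.05 and 0.19). The cause of these changes was not tested. Counts of genes are fewer under the stricter fold by its construction.

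Correlations of same-numbered deviations were -0.0521 to 0.0541 and showed no pairing by replicate number. With 3 libraries per group, they cannot show whether plants or days were shared. With the replicate number as a block, 17100 genes were called against leaf and 17644 against stamens, and no count in the lists or relatives moved by over 1.5 times. For loci at few counts, depth limits what can be seen: 3 counts correspond to 0.126 to 0.229 CPM per library.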

Other observations

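The following genes were chosen after the members were seen, and their values are descriptions. Auxin synthesis differed by gene. TAA1, the aminotransferase of the first step, had 21.0 ± 0.15 CPM in gynoecium, 1.23 ± 0.591 in leaf and 2.81 ± 0.174 in stamens (SD, n = 3). YUC6 had 7.73 CPM in gynoecium and 21.2 in stamens. YUC2 was at 26.0 CPM in stamens and uncounted in gynoecium, where the members YUC3 and YUC4 had 6.52 and 0.759. YUC5, YUC7 and YUC9 had no count in any library.

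Seed coat flavonoid genes were only partly present. TT1 and TT8, transcription factors of proanthocyanidin synthesis, were members at 0.873 and 1.33 CPM, with the transporter TT12 at 1.74. TT16, a MADS-box gene of the same pathway, had 10.3 CPM in gynoecium and 0.294 in stamens. Their partner TT2 had no gynoecium count, and BAN, the enzyme of the pathway's committed step, had none in any library. AHA10, the proton pump linked to TT12, had 1.99 CPM in gynoecium and 14.3 in stamens.

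In the SHI family STY1 was at 0 outside gynoecium, and its relatives were low in stamens. STY2 had 21.0 CPM in gynoecium and 0.828 in stamens, SRS5 had 39.2 and 1.37, and SRS7 had 11.8 and 0.0784. LRP1 was level, at 5.76 and 5.72. SRS3, SRS6 and SRS8 had no count.

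The scarcity of counts just above 0 was seen in the other tissues too. Of loci with at least 50 gynoecium counts, 1244 had 0 in leaf and 169 had 1 to 5. In the stamens of the same loci 276 had 0 and 87 had 1 to 5. Of loci with at least 50 counts in stamens, 1870 had 0 in gynoecium and 177 had 1 to 5, and of those with at least 50 in leaf, 695 had 0 in gynoecium and 105 had 1 to 5.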
